A study of Mus musculus with 11 samples.

Results

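The genes described here encode sodium, calcium and potassium channels of the voltage-gated superfamily and their relatives. They were chosen by symbol alone: every gene of the count table that begins with Kcn, with Scn, a number and a or b, or with Cacna, Cacnb or Cacng. The rule found 134 genes among 38197, and it reaches further than the name "voltage-gated". Of the 134, 10 encode sodium channel pore subunits, 4 sodium channel beta subunits, 10 calcium channel pore subunits, 16 calcium channel auxiliary subunits (beta, gamma and alpha2delta) and 40 voltage-gated potassium channel pores. Of the other members, 17 are potassium channel auxiliary or regulator genes, 15 inward rectifiers and 14 K2P (tandem pore domain) potassium channels. The last 8 are calcium- or sodium-activated potassium channels, with their relative Kcnu1 counted among them. Inward rectifiers and K2P channels do not carry the voltage sensor that gives the superfamily its name.

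Expression was measured by sequencing of polyadenylated RNA in 11 libraries of E14, a wild type mouse embryonic stem cell line of strain 129 grown as a monolayer. All groups come from this 1 line, which was treated with retinoic acid (RA) and SAG, an agonist of Smoothened in the hedgehog pathway, from 0 to 3 days. There were 2 libraries of undifferentiated cells (day 0) and 2 each of unsorted cultures at days 1, 2 and 3. A further 3 libraries came from neural progenitors sorted by the surface protein Prominin-1 and labelled day 3.5, although another label of the same samples gives 3 days. These sorted libraries also carry another label prefix than the rest, so the sort, the time and whatever the prefix stands for cannot be told apart. Nothing in the labels says that replicates came from separate cultures, so p-values measure the spread between these libraries, which may be technical.

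Voltage-gated channels open when the membrane depolarises: sodium channels carry the rising phase of the action potential, calcium channels couple voltage to calcium entry, and potassium channels repolarise the cell. Auxiliary subunits set the trafficking and gating of the pores. Inward rectifiers and K2P channels hold the resting potential, and K2P channels act as leak conductances. Many of these genes are known for expression in neurons and in their precursors, where early calcium entry through low-threshold (T-type) channels precedes firing.

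Proximal promoters are shown for 3 members at the ends of the measured range: the gene with no count at day 0 and the largest level reached from it by day 3 (Kcnc1), the gene that fell most (Kcnj3), and a gene with 0 counts in all 11 libraries (Kcna10). Each run holds 250 bases before to 50 after a RefSeq transcript start (GRCm38.p6), 5′ to 3′ on the gene's strand, in lower case with every CG dinucleotide in capitals.
Kcnc1 (chr7:46396218-46396517, plus strand): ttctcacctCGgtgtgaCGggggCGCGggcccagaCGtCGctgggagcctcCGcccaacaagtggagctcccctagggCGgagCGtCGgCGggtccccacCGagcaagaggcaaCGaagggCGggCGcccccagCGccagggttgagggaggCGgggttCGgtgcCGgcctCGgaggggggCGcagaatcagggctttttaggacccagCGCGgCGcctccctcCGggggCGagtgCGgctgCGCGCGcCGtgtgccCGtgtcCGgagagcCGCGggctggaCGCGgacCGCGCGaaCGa
Kcnj3 (chr2:55435720-55436019, plus strand): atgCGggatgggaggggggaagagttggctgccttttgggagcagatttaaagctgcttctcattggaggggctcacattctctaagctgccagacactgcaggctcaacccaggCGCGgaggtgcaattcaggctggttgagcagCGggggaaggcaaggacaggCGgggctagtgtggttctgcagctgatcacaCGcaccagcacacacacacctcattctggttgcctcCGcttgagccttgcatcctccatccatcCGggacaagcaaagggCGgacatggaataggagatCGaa
Kcna10 (chr3:107182893-107183192, plus strand): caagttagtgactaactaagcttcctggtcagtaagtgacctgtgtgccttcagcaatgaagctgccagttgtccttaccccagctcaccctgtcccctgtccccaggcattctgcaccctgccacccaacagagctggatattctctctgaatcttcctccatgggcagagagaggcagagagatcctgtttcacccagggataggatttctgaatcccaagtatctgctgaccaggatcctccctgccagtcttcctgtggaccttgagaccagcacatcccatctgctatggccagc
The window of Kcnc1 holds 41 CG dinucleotides at 74.7% GC, that of Kcnj3 10 at 57.7% GC and that of Kcna10 none at 53.7% GC. A window was found by symbol for 99 of the 134 members. The median number of CG per window was 21 for the 40 matched members that were higher at day 3 than at day 0, 16.5 for the 8 that were lower, 12 for the 22 not called and 9 for the 29 not tested. Over all genes with a window the medians were 22, 20, 22 and 3 in the same order. The motif TATAAA, searched on both strands at any position, occurred in 4.04% of the 99 member windows and 12.4% of all, with 1 window per gene. Over all genes the share was 23.2% among those not tested and 6.51%, 7.7% and 6.16% among those higher, lower and not called. Among members it was 10.3% of those not tested, and 2.5%, 0% and 0% in the same order. Nothing outside these 300 bases was searched. Where a gene had several windows the one with most CG entered the medians and these shares.

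Library totals ran from 13173674 counts in a sorted library to 30384599 on day 0. The level corresponding to 3 counts was between 0.0938 and 0.128 CPM in the unsorted libraries and between 0.179 and 0.221 CPM in the sorted ones. CPM here are counts scaled by the library total and by the trimmed mean of M values (TMM). This floor covers counting error only. Levels below are in the same TMM-scaled CPM, which compares one gene between libraries. Levels of different genes are compared by the deposited FPKM, which is per length. A gene was called higher or lower where edgeR's quasi-likelihood test gave a Benjamini-Hochberg adjusted p under 0.05 over all genes tested, and every adjusted p below is from that test unless another is named. The stem cell markers fell and the neural markers rose over the course. All 5 stem cell markers (Pou5f1, Nanog, Zfp42, Esrrb, Klf4) were lower and all 6 neural progenitor markers higher at day 3 than at day 0. Of 6 neuron markers 5 were higher and 1, Stmn2, was lower, with a mean of 311 CPM on day 0 and 106 CPM on day 3. Of 6 muscle markers Actc1 was higher at day 3 (means 9.74 and 18.7 CPM on days 0 and 3, adjusted p = 0.047). Myh6 was not called, with means from 2.42 to 6.46 CPM on days 0 to 3. Tnnt2 was not called either, and Myog, Myod1 and Nkx2-5 had means of at most 0.11 CPM on every day. The 6 muscle markers together summed to between 6.96 and 23.9 CPM in the unsorted libraries. Of 5 glial markers 3 were higher at day 3 than at day 0, and of 5 extraembryonic endoderm markers none was called in that comparison. The bulk libraries cannot separate fewer cells of a type from less RNA per cell.

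Many channel genes were weakly expressed. Of the 134 members, 97 passed the filter on low counts over days 0 to 3 and 100 over all 11 libraries. The other 34 were tested in neither fit, and the highest of them in any library was Kcnk9, a K2P leak channel, at 0.723 CPM or 23 counts. Of those 34, 10 had at most 3 counts in every library and 3 (Kcna10, Kcnj1, Kcnmb3) had none, which allows up to the 3-count level above. The untested members include Kcnd2, with at most 10 counts in any library, Kcnq1, with at most 16, Kcnq3, with at most 19, Kcnip4, with at most 6, and Kcnj6, with a single count in all. The number of members at or above 1 CPM was 44 and 43 in the day 0 libraries, 64 and 65 on day 3, and 59, 60 and 63 in the sorted libraries. Exons of 39 members overlap those of another gene, and since no source used here gives the counting strand, their counts may include reads of the neighbour. Among the members named below these are Cacna1a, Cacna1d, Cacna1h, Cacna2d2, Cacnb2, Cacng8, Kcnab2, Kcnd3, Kcnj3, Kcnk1, Kcnk2, Kcnma1, Kcnn2 and Scn9a.

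The day 3 libraries differed from each other more in the channel genes than in other genes. Of 65 members at a mean of at least 1 CPM on day 3, 24 were over 1.5-fold higher in replicate 1 and 3 in replicate 2. Over 1.5-fold higher levels in replicate 1 were thus found for 36.9% of these members and 9.64% of all 13804 genes at that level. The neuron markers summed to 909 CPM in replicate 1 and 757 CPM in replicate 2. On day 0, 12 of 43 members were over 1.5-fold higher in replicate 1 and 1 in replicate 2, and on day 1 the split ran the other way, with 1 and 13 of 50. The share of members over 1.5-fold apart was 30.2% on day 0 against 24.3% of all genes at that level, and 28% against 22.6% on day 1. On day 2 it was 15.8% against 5.72%, and on day 3 41.5% against 13.7%. The part of these differences in the calls below was not tested beyond leaving out each library.

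Over the whole unsorted course, 69 of the 97 tested members changed on some day by the F test across days 0 to 3, against 53.7% of all genes tested. Of the 69, 42 had their highest mean on day 3. A further 13 peaked at day 1, 8 were highest in the undifferentiated cells, and 6 peaked at day 2. The day 3 share of 60.9% compares with 38.2% among all genes that changed. A member that passed the filter only through the day on which it was high had to differ between days, so these counts describe the tested members and not all 134.

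**Figure D1:**
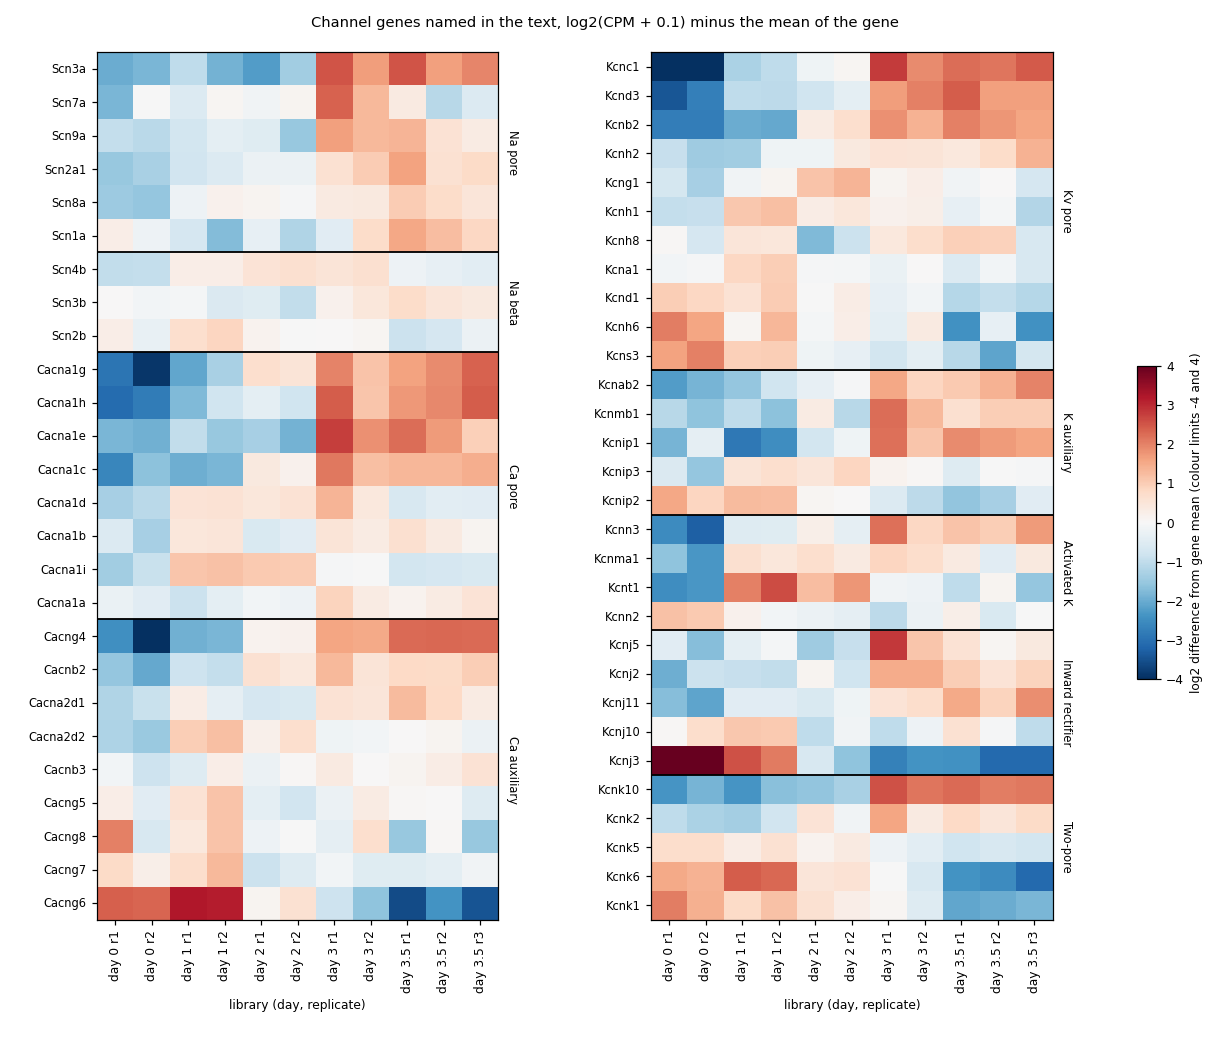
Level of the tested channel genes named in the text (rows, grouped by class) in each of the 11 libraries (columns, day and replicate), as the log2 of CPM plus 0.1 minus the mean of the gene over the libraries, with colour limits at -4 and 4. Many rows turn from blue at day 0 to red at day 3, while Kcnj3, Cacng6, Kcnk6 and Kcnk1 run the other way.

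Between day 0 and day 3, 55 members were higher and 12 were lower, where 27.6% of all genes tested were higher and 26.3% lower. As shares of the 97 tested members these are 56.7% and 12.4%, and as shares of all 134 they are 41% and 8.96%. The median log2 fold change was 1.57 over the tested members and 0.02 over all genes tested. Setting the 3 tested members without a day 0 count to their lower bounds left the members' median at 1.57. It could not move the median, since these bounds (5.39-fold, 17.3-fold and 110-fold) all lie above it. Of the 55 higher members, 10 had a mean under 1 CPM even at day 3. Leaving out day 3 replicate 1 gave 42 higher and 9 lower members, the lowest counts with any 1 library left out.

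**Figure D2:**
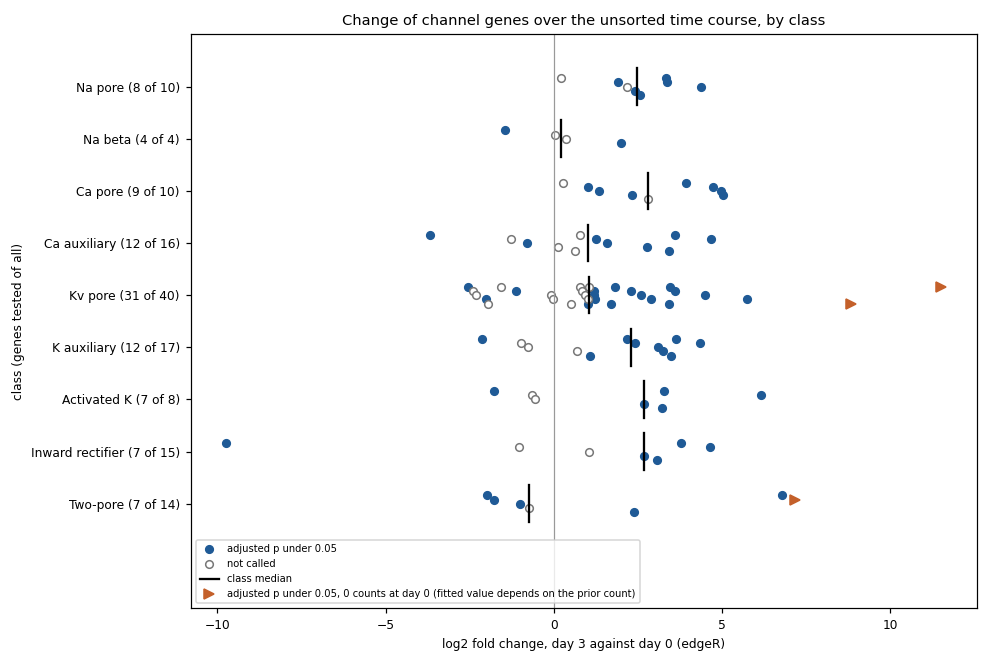
The log2 fold change of each tested channel gene from day 0 to day 3 by class, with the class median as a bar (edgeR; filled points are called, open points not). Triangles mark members with 0 counts in both day 0 libraries, whose fitted value depends on the prior count; the median lies above 0 in 8 of the 9 classes and at -0.73 in the K2P (two-pore) class.

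Most sodium channel pore genes rose, with 6 of the 8 tested members higher at day 3 and none lower. Scn3a, known as a sodium channel of the embryonic brain, measured 0.374 and 0.428 CPM on day 0, 0.83 and 0.406 on day 1, 0.297 and 0.618 on day 2, and 10.7 and 5.82 on day 3. The day 3 libraries lay far above all 6 earlier ones. The log2 fold change from day 2 to day 3 was 4.16 (SE 0.54, adjusted p = 0.00702). Scn9a, a channel known from sensory neurons, lies on the same stretch of chromosome 2 and also rose in that step, by 2.43 (SE 0.40, adjusted p = 0.017), with 2.6 and 1.2 CPM on day 2 and 11.5 and 9 CPM on day 3. Between them lie Scn2a1 and Scn1a. Scn2a1, named Scn2a in GENCODE, rose from a mean of 0.631 CPM (SD 0.076, n = 2) at day 0 to 3.33 (SD 0.67, n = 2) at day 3 in smaller steps (log2 fold change 2.40, SE 0.39, adjusted p = 0.00081). Scn1a was not called, with 2.07 and 1.46 CPM on day 0 and 1.23 and 2.89 on day 3.

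The 5 sodium channel genes of chromosome 2 lie in 1 cluster in GENCODE M21 on GRCm38, in the order Scn3a (65457118 to 65567627, minus strand), Scn2a1 (65620771 to 65767447, plus strand), Scn1a (66270778 to 66440840, minus), Scn9a (66480080 to 66634962, minus) and Scn7a (66673425 to 66784914, minus). Exons of Scn9a overlap those of Gm13629 on the opposite strand. Scn7a, which encodes a sodium-sensing relative of the voltage-gated pores, had a mean of 1.25 CPM on day 3 and was higher there than at day 0 (adjusted p = 0.017). Neighbouring genes of this cluster thus differed in their course, with Scn3a and Scn9a called in the day 3 step and Scn2a1, Scn1a and Scn7a not, although the difference between genes was not tested.

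Scn8a, the channel of axon initial segments and nodes, was the most abundant sodium pore gene at day 0 (1.67 FPKM, SD 0.07, n = 2). It measured 5.57 and 5.18 CPM on day 0, 13.4 and 17.4 on day 1, 16.6 and 14.8 on day 2 and 19.7 and 20.3 on day 3. Most of the rise was in the first day (log2 fold change 1.52, SE 0.23, adjusted p = 0.0029). On the log2(FPKM + 0.1) scale the change of Scn8a from day 0 to day 3 was 0.69 in place of 1.90 in the counts, and was not called (limma, adjusted p = 0.0585).

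Sodium channel beta subunits anchor the pores and modify their gating. Scn4b was higher at day 3 than at day 0, and Scn2b and Scn3b were not called. Scn3b measured between 2.29 and 6.44 CPM over the unsorted days, with overlapping days.

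Most calcium channel pore genes rose as well. The 10 genes together measured 31.8 and 25.7 CPM on day 0, 41.3 and 53.8 on day 1, 76.6 and 71.1 on day 2 and 214 and 122 on day 3. Of 9 tested members, 7 were higher at day 3 than at day 0 and none lower. By mean FPKM the highest of them at day 3 were the T-type genes Cacna1g and Cacna1h, low-threshold channels that open near the resting potential. The libraries of Cacna1h overlapped those of Cacna1a in FPKM. Cacna1g measured 2.48 and 1.24 CPM on day 0, 4.58 and 8 on day 1, 31.5 and 28 on day 2 and 77.9 and 43.6 on day 3, so that no 2 days overlapped. It was higher at day 1 than at day 0 (log2 fold change 1.74, SE 0.42, adjusted p = 0.02) and at day 2 than at day 1 (2.24, SE 0.39, adjusted p = 0.0052). The step from day 2 to day 3 was not called (1.03, SE 0.37, adjusted p = 0.156). By FPKM it was the highest of all 134 members at day 3, at 21.9 (SD 7.8, n = 2), and 32.6-fold above day 0 by mean CPM.

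Cacna1h measured 0.986 and 1.24 CPM on day 0, 2.63 and 5.25 on day 1, 6.95 and 5.23 on day 2 and 49.1 and 19.9 on day 3. It was called in the first day's step (log2 fold change 1.83, SE 0.51, adjusted p = 0.035), a call that ended without any 1 day 0 library, day 1 replicate 2 or day 2 replicate 1, and again from day 2 to day 3 (2.50, SE 0.47, adjusted p = 0.0245). Exons of Cacna1h overlap those of Tpsg1 on the opposite strand. The other T-type gene, Cacna1i, was called higher at day 1 (adjusted p = 0.014), at a mean of 0.484 CPM, its highest.

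**Figure D3:**
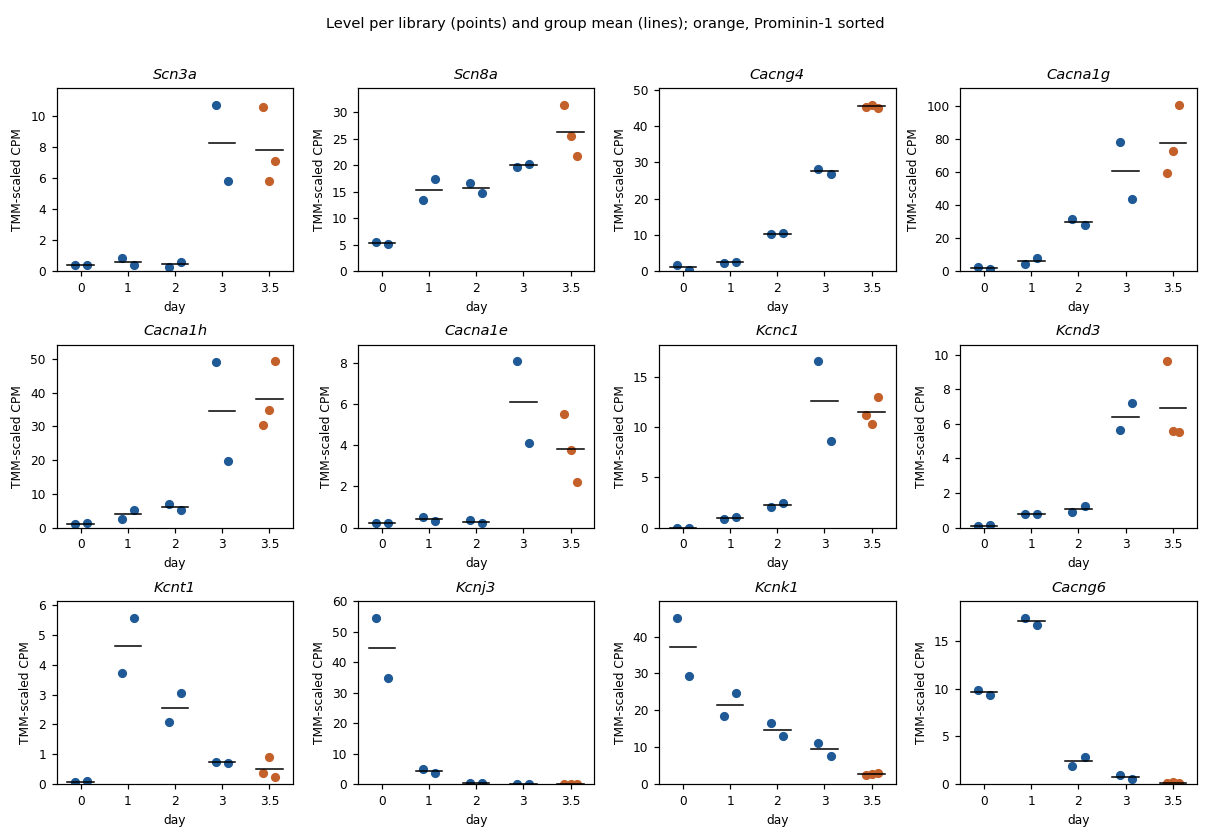
TMM-scaled CPM of 12 channel genes in each library (points; blue, unsorted; orange, Prominin-1 sorted) with the group mean as a line, each panel on its own axis from 0. Scn3a, Cacna1e and Cacna1h jump at day 3, Cacna1g climbs from day 1, Kcnt1 peaks at day 1, and Kcnj3 is nearly gone by day 2.

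The high-threshold calcium channel genes followed several courses. Cacna1e, the R-type pore, stayed at or below 0.505 CPM in all 6 libraries of days 0 to 2 and measured 8.08 and 4.1 CPM on day 3 (log2 fold change from day 2 4.35, SE 0.53, adjusted p = 0.0063). Cacna1c, an L-type pore, rose a day earlier, from 0.902 and 1 CPM on day 1 to 5.02 and 4.33 on day 2 (2.29, SE 0.44, adjusted p = 0.008). Cacna1d, the other main neural L-type pore, rose on day 1, from 0.714 and 0.856 CPM to 2.85 and 2.94 (1.88, SE 0.42, adjusted p = 0.014). The first called step of these 3 genes thus fell on different days, each with no overlap between the libraries of the step named. Whether the genes differ in timing was not tested. Cacna1c had 16 and 27 counts at day 0 and Cacna1d 21 and 20, so both were already detected there. Cacna1a and Cacna1b, the P/Q-type and N-type pores of synaptic terminals, were at higher levels at day 0. Cacna1a measured 16.8 and 14.9 CPM on day 0 and 38.1 and 25.7 on day 3 (1.01, SE 0.26, adjusted p = 0.0095). This call ended without day 3 replicate 1, with a GC correction and on every FPKM scale. Cacna1b rose on day 1, fell on day 2 and was higher again at day 3 than at day 0, with means of 6.29, 16.3, 8.12 and 15.8 CPM on days 0 to 3. The day 1 rise and the day 2 fall of Cacna1b were both lost on every FPKM scale. The fall was also lost without any 1 library of days 1 to 3.

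Among calcium channel auxiliary subunits, 6 of 12 tested members were higher at day 3 than at day 0 and 2 were lower. Cacng4, a gamma subunit of the group that also binds AMPA receptors, measured 1.63 and 0.471 CPM on day 0, 2.38 and 2.56 on day 1, 10.3 and 10.5 on day 2 and 28.3 and 26.9 on day 3. The change from day 0 to day 3 was 4.68 (SE 0.46, adjusted p = 5.1e-05). Cacnb2, a beta subunit that brings pores to the membrane, was higher at day 2 than at day 1 by 1.43 (SE 0.33, adjusted p = 0.017), at 10.2 and 8.94 CPM against 3.72 and 3.41. Cacna2d2, an alpha2delta subunit, peaked at day 1, at 12.2 and 14.3 CPM against 2.55 and 2.1 on day 0 (2.50, SE 0.29, adjusted p = 0.00088). Cacna2d1, the widely expressed alpha2delta subunit, was called at day 1 and again at day 3, and reached 37.4 and 35.1 CPM. The day 1 call ended without day 0 replicate 1 or day 1 replicate 1, and the later one without any 1 library of days 2 and 3. Cacnb3 was the second most abundant member by mean FPKM at day 3 (12.4, SD 2.4, n = 2), with libraries that overlapped those of Cacng7. It was not called, with a log2 fold change from day 0 of 0.61. Its direction turned with a GC correction, to -0.41 (adjusted p = 0.0202).

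The gamma subunit genes Cacng7 and Cacng6 went down. Cacng7 had the highest mean FPKM of the members at day 0 (15, SD 5, n = 2) and day 1, though its day 0 libraries overlapped those of Kcnk1. It measured 54.2 and 37.3 CPM on day 0, 52 and 78.2 on day 1, 17.2 and 21.9 on day 2 and 29.4 and 22.5 on day 3. Its fall from day 1 to day 2 was called (log2 fold change -1.73, SE 0.28, adjusted p = 0.0034). Its lower level at day 3 than at day 0 was also called (adjusted p = 0.0314), a call that ended without day 0 replicate 1, without either day 3 library and on every FPKM scale. Cacng6 measured 9.89 and 9.38 CPM on day 0, 17.5 and 16.6 on day 1, 1.93 and 2.8 on day 2 and 0.975 and 0.52 on day 3. It fell by 2.84 on the log2 scale from day 1 to day 2 (SE 0.33, adjusted p = 0.00074). Both genes lie in 1 cluster on the plus strand of chromosome 7, Cacng7 at 3332955 to 3368221 and Cacng6 at 3424195 to 3435667. Cacng8 lies between them, at 3390683 to 3415648, was at most 1.05 CPM in any library, and was not called in any comparison. Cacng4 lies in a like cluster on chromosome 11 beside Cacng5, which was not called in any comparison and had means from 0.35 to 1.14 CPM.

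Of 31 tested voltage-gated potassium channel pore genes, 16 were higher at day 3 than at day 0 and 3 were lower. Kcnc1, a fast delayed rectifier of the Shaw family known for high-frequency firing, had 0 counts in both day 0 libraries. It had 25 and 35 counts at day 1, 54 and 67 on day 2 and 528 and 267 on day 3, or 16.6 and 8.68 CPM. Against a day 0 level of 3 counts per library, the day 3 mean was at least 110-fold higher, and the day 1 mean at least 8.66-fold higher. These bounds are from counts. The deposited FPKM were above 0 at day 0 (0.0134 and 0.00507), and were 0.475 and 0.113 on day 1 and 1.76 and 0.93 on day 3. The step from day 2 to day 3 was 2.51 on the log2 scale (SE 0.40, adjusted p = 0.018). The promoter of this gene, shown above, has the most CG of those printed. Kcnb2, a delayed rectifier of the Shab family, also had 0 counts at day 0 and 2 in each day 1 library, and rose to 73 and 52 counts at day 3, at least 17.3-fold above the day 0 floor.

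Kcnd3, an A-type channel that delays firing, measured 0.068 and 0.171 CPM on day 0, 0.794 and 0.781 on day 1, 0.929 and 1.27 on day 2 and 5.63 and 7.18 on day 3. It was called in the day 1 step (adjusted p = 0.0094) and in the day 3 step (log2 fold change 2.54, SE 0.39, adjusted p = 0.014). Exons of Kcnd3 overlap the antisense gene Kcnd3os. Kcnd1, of the same A-type family, went the other way, from 12.3 and 10.9 CPM on day 0 to 4.87 and 5.66 on day 3 (-1.14, SE 0.27, adjusted p = 0.0065). Kcnh1, the ether-a-go-go channel, rose on day 1. It went from 1.12 and 1.16 CPM to 4.94 and 5.31 (2.17, SE 0.31, adjusted p = 0.0022), and stood at 2.58 and 2.67 CPM on day 3. Kcnh2, the ERG channel, was the most abundant potassium pore gene of this class by FPKM at day 3 (5.39, SD 0.59, n = 2), and was higher than at day 0 by 1.71 (SE 0.40, adjusted p = 0.0061).

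Silent subunits, which form no channel alone and modify Shab-type pores, split. Kcng1 peaked at day 2, at 14.7 and 17.5 CPM against 5.99 and 7.22 on day 1 (log2 fold change 1.28, SE 0.29, adjusted p = 0.015), and stood at 7.2 and 8.09 on day 3. Kcns3 fell, from 2.92 and 3.9 CPM on day 0 through 1.84 in each library at day 1 to 0.503 and 0.65 on day 3 (-2.55, SE 0.39, adjusted p = 0.00063). Kcnh6, of the ERG family, was at 2.14 and 1.5 CPM on day 0 and 0.314 and 0.585 on day 3 (-2.01, SE 0.59, adjusted p = 0.017), a call that ended without day 0 replicate 1 or day 3 replicate 1. Kcna1, a Shaker channel of axons, was not called in any comparison, with means from 1.09 to 2.3 CPM on days 0 to 3. Kcnh8, of the ELK family, was lower at day 2 than at day 1 (adjusted p = 0.038) and measured 1.04 and 1.27 CPM on day 3.

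Of 12 tested potassium channel auxiliary genes, 8 were higher at day 3 than at day 0 and 1, Kcnip2, was lower. The KChIP genes, calcium-binding partners of A-type channels, moved in different directions. Kcnip2 fell from 4.42 and 2.7 CPM on day 0 to 0.975 and 0.65 on day 3 (log2 fold change -2.12, SE 0.40, adjusted p = 0.0019). Kcnip1 was at 0.102 and 0.471 CPM on day 0 and 3.24 and 1.46 on day 3 (3.08, SE 0.75, adjusted p = 0.0073), and Kcnip3 rose on day 1 from a mean of 4.8 to 14.5 CPM. Kcnab2, a beta subunit of Shaker channels, had 0.272 and 0.385 CPM on day 0 and 5.03 and 3.12 on day 3 (3.64, SE 0.50, adjusted p = 0.00035). Kcnmb1, a subunit of the BK channel, had a mean of 3.78 CPM on day 3 against 0.332 on day 0. Whether the members of the KChIP family differ in their change was not tested.

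Of 7 tested genes in the class of calcium- and sodium-activated potassium channels, 4 were higher at day 3 than at day 0 and 1 was lower. Kcnt1, a sodium-activated channel, had the largest called gain at day 1 among members with a mean of at least 1 CPM. It had 0.068 and 0.0856 CPM on day 0, 3.72 and 5.6 on day 1, 2.08 and 3.05 on day 2 and 0.755 and 0.715 on day 3. Kcnt1 was higher at day 1 than at day 0 (adjusted p = 0.00032) and lower at day 3 than at day 2 (log2 fold change -1.80, SE 0.40, adjusted p = 0.043). Kcnma1, the BK pore gated by voltage and calcium, rose on day 1 and was called in no later step, with means of 0.145, 1.25, 1.23 and 1.49 CPM on days 0 to 3 (day 1 adjusted p = 0.0057). Kcnn3, a small-conductance calcium-activated channel, had 2 counts in all at day 0 and means of 0.586 CPM on day 1 and 2.97 on day 3 (adjusted p from day 0 to day 3 0.00048). Its relative Kcnn2 fell, from 3.13 and 2.91 CPM on day 0 to 0.597 and 1.14 on day 3 (-1.79, SE 0.42, adjusted p = 0.0057).

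The gene that fell most was an inward rectifier. Kcnj3, a G protein-gated channel subunit, was among the 3 highest members by mean FPKM at day 0 (8.8, SD 3.5, n = 2), though its libraries overlapped those of Cacnb3. It had 1608 and 815 counts at day 0, 135 and 112 on day 1, 12 and 5 on day 2 and 1 and 2 on day 3. In CPM these were 54.7 and 34.9, then 4.87 and 3.5, then 0.446 and 0.182, then at or below the 3-count level. The first 2 steps were each called, at -3.42 (SE 0.36, adjusted p = 0.00062) and -3.72 (SE 0.45, adjusted p = 0.00081) on the log2 scale. Its promoter, shown above, held 10 CG. Exons of Kcnj3 overlap those of Gm26794 on the opposite strand. Of the 7 inward rectifier genes tested, 4 were higher at day 3 than at day 0. Kcnj5, which forms heteromers with the Kcnj3 product, was at most 0.344 CPM before day 3 and measured 3.21 and 0.91 CPM there (4.18, SE 0.88, adjusted p = 0.036). Kcnj2, a strong inward rectifier, had 0.272 and 0.685 CPM on day 0 and 3.87 and 3.93 on day 3 (3.05, SE 0.53, adjusted p = 0.0012). Kcnj10, known from glia, was lower at day 2 than at day 1 (-1.64, SE 0.46, adjusted p = 0.036), with 0.892 and 1.71 CPM against 4.11 and 4.03. Kcnj11, the pore of the ATP-sensitive channel, was called higher at day 3 at a mean of only 0.576 CPM.

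K2P genes moved in both directions. The 14 genes together measured 95.6 and 77.6 CPM on day 0, 70.7 and 81.8 on day 1, 49.9 and 50.6 on day 2 and 44 and 32.1 on day 3. Of 7 tested, 3 were lower and 3 higher at day 3 than at day 0. Kcnk1, a weak leak channel, measured 45.2 and 29.2 CPM on day 0, 18.4 and 24.6 on day 1, 16.5 and 13 on day 2 and 11.3 and 7.51 on day 3 (log2 fold change -1.98, SE 0.31, adjusted p = 0.00069). Kcnk5, an acid-sensitive leak channel, fell from 35.2 and 35 CPM to 18.6 and 16.2 (SE of the log2 fold change 0.20, adjusted p = 0.0027). Kcnk6 rose to 24.6 and 22.4 CPM on day 1 from 13.2 and 12.1, and then fell to 6.36 and 6.76 on day 2 (-1.84, SE 0.27, adjusted p = 0.002). Among those that rose, Kcnk10, a mechanosensitive and lipid-sensitive channel, had 1 count at day 0 in all, 2 and 3 counts at day 2 and 93 and 67 counts at day 3, where it measured 2.92 and 2.18 CPM (day 3 against day 2, adjusted p = 0.014). Kcnk2, of the same group, had a mean of 0.618 CPM on day 0 and 3.24 on day 3 (2.38, SE 0.55, adjusted p = 0.0057). The day 0 to day 3 calls of Kcnk2 and Kcnip1 ended without day 3 replicate 1.

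Step by step, the channel genes gained most from day 0 to day 1 and from day 2 to day 3. At day 1, 24 members were higher than at day 0 and 1 (Kcnj3) was lower, where 12% of all genes tested were higher and 8.91% lower. Of those 24, 8 had a mean under 1 CPM on day 1. At day 2, 7 members were higher and 11 lower than at day 1, against 9.65% and 9.99% of all genes, so that the members' shares of 7.22% and 11.3% were near the background. At day 3, 10 members were higher and 2 lower than at day 2, against 2.81% and 1.26% of all genes. The median log2 fold changes of the members were 0.70, -0.01 and 0.44 in the 3 steps. Over all genes tested they were 0.01, 0.00 and -0.01.

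Single libraries decided much of the day 3 step, in which all 6 neuron markers were also higher; their part in the channel results was not tested. Without day 2 replicate 2 or without day 3 replicate 1, no member was called higher at day 3 than at day 2, and without day 2 replicate 1 there were 2. Over all genes tested, 473 were called higher in this step with all libraries, 18 without day 2 replicate 2 and 10 without day 3 replicate 1. At an unadjusted p under 0.05, with all libraries, 30 members were higher and 8 lower. Leaving out 1 library gave between 15 and 22 higher members at day 1, and between 3 and 14 higher and 4 and 13 lower members at day 2. The day 1 call of Cacna1g ended without day 0 replicate 2 or day 1 replicate 2, those of Cacna1d and Kcnd3 without day 0 replicate 1, and the day 2 call of Cacna1c without day 2 replicate 1. The day 2 calls of Cacnb2 and Kcng1 ended without day 1 replicate 1 or either day 2 library. The day 2 calls of Kcnh8, Kcnj10, Kcns3 and Kcnip2 ended when any 1 of the 4 libraries of days 1 and 2 was left out, as did the day 3 calls of Kcnt1 and Cacng6 for any 1 of days 2 and 3.

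**Figure D4:**
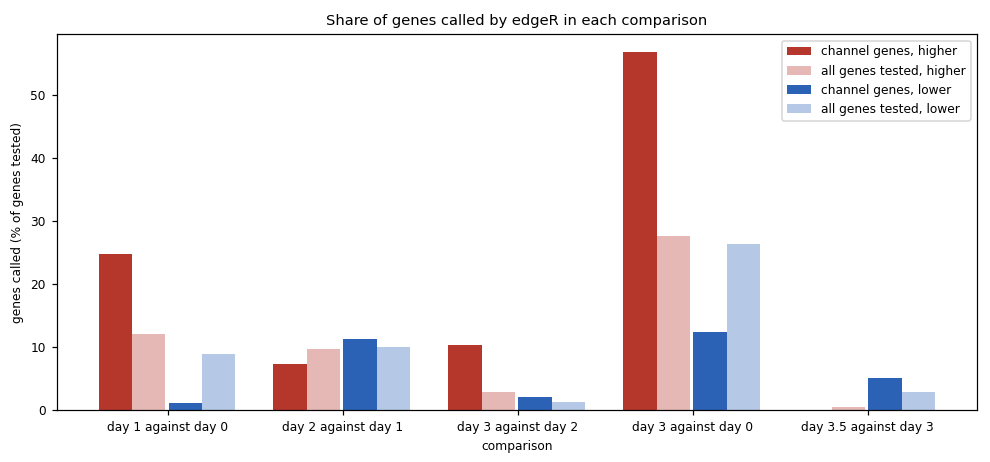
Share of genes called higher (red) or lower (blue) by edgeR at an adjusted p under 0.05 in each comparison, as a percentage of genes tested, for channel genes (dark, 97 or 100 tested) and all genes tested (pale). The share of channel genes called higher from day 0 to day 3 was 56.7% against 27.6%. At day 3.5 no channel gene was called higher, against 0.435% of all genes tested.

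Few genes were called between the sorted day 3.5 and the unsorted day 3 libraries, both among channel genes and among all genes tested. Between day 3.5 and day 3, 5 of 100 tested members were lower and none was higher, where 2.93% of all genes tested were lower and 0.435% higher. The members' shares of 5% and 0% were thus near the background. Without adjustment, at p under 0.05, 19 members were lower and 2 higher, and DESeq2 called 7 lower and 1 higher. In 30 of the 100 members all sorted libraries lay below both day 3 libraries and in 9 all lay above, against 19.1% and 14.3% of all genes tested. The median log2 fold change was -0.31 over the members and -0.01 over all genes.

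Kcnk6 measured 4.5 and 2.86 CPM on day 3 and 0.777, 0.713 and 0.441 in the sorted libraries (log2 fold change -2.49, SE 0.29, adjusted p = 0.00085). Kcnk1 measured 11.3 and 7.51 CPM on day 3 and 2.45, 2.66 and 2.94 in the sorted libraries (-1.81, SE 0.27, adjusted p = 0.0039). Both K2P genes had already fallen between day 0 and day 3, and their groups did not overlap here. Cacna1d stood at 5.13 and 2.63 CPM against 1.2, 1.43 and 1.4 (-1.53, SE 0.33, adjusted p = 0.027). Cacng6 was also called lower and was under 1 CPM in every library of both groups. Without day 3 replicate 1, Kcnk6 was called lower and no other member was. The call of Cacna1d also ended without any 1 sorted library or day 2 replicate 2.

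Several genes that had risen by day 3 were not called in either direction between day 3.5 and day 3. Cacna1g measured 59.5, 72.6 and 100.7 CPM in the sorted libraries, a span that includes the day 3 replicate at 77.9 (log2 fold change 0.35, SE 0.33, adjusted p = 0.676). Scn3a measured 10.6, 5.77 and 7.06 CPM (-0.08, SE 0.38, adjusted p = 0.96). Kcnc1 measured 11.2, 10.4 and 13 CPM (-0.13, SE 0.29, adjusted p = 0.895). Cacng4 was above both day 3 libraries in all 3 sorted libraries, at 45.4, 45.9 and 45.1 CPM, without passing the test (0.72, SE 0.28, adjusted p = 0.237). By FPKM the order of the most abundant members began with Cacna1g (26.6, SD 11, n = 3), Cacnb3 (13.2, SD 3, n = 3) and Cacng4 (11, SD 1, n = 3), and the spreads of Cacnb3 and Cacng4 overlap.

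Markers of another cell type moved with this comparison. The 5 extraembryonic endoderm markers summed to 78.7 and 54.2 CPM on day 3 and to 4.12, 4.67 and 3.24 CPM in the sorted libraries, and Gata4, Gata6, Sox17 and Sox7 were called lower. The fifth, Afp, was under 1 CPM on average in both groups. Of 5 stem cell markers 2 (Pou5f1 and Zfp42) were lower as well. Their list summed to between 3.47 and 6.74 CPM in the sorted libraries against 15.3 and 11.2 on day 3. Of 6 neuron markers none was called, of 6 neural progenitor markers Fabp7 was higher, and of 5 glial and 3 tested muscle markers none was called. Their part in the channel results was not tested.

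**Figure D5:**
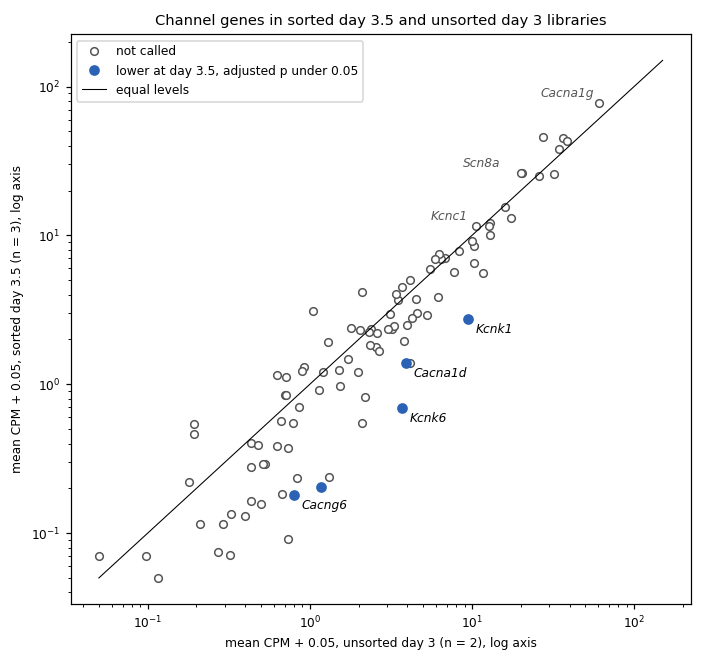
Mean CPM plus 0.05 of the 100 tested channel genes in the unsorted day 3 libraries (n = 2, horizontal log axis) and in the Prominin-1 sorted day 3.5 libraries (n = 3, vertical log axis), with the line of equal levels. The 5 genes called lower are filled, some with their names, and lie below the line, while Cacna1g, Scn8a and Kcnc1 lie close to it.

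Other genes of membrane excitability were read from 3 lists. Of 20 other channels, 18 were tested, and 10 were higher and 1 lower at day 3 than at day 0. Ano1 and Tpcn1 had the smallest adjusted p of this list, with means of 1.49 and 15.7 CPM on day 0 and 18.6 and 66.9 on day 3. Hcn4, a pacemaker channel of the same superfamily, had means of 0.379 CPM on day 0 and 7.35 on day 3. For Unc79, a subunit of the sodium leak channel, these were 0.149 and 5.29. Hvcn1, the proton channel, was the 1 that was lower. Of 20 partner and clustering proteins, 18 were tested, with 10 higher and 3 lower. Ank3, the ankyrin that gathers sodium channels at the axon initial segment, had means of 23.1 CPM on day 0 and 166 on day 3, and Cntn2, an adhesion protein of potassium channel clusters in axons, 9.52 and 183. Sptbn4, the spectrin of the same initial segment, fell from 7.03 to 0.766 CPM. Of 14 genes of the REST repressor complex, which is known to silence sodium channel genes outside neurons, 7 were higher and 4 lower. Rest itself fell from a mean of 612 CPM on day 0 to 191 on day 1 and 123 on day 3, and was lower at day 1 and at day 3 than at day 0. These lists were chosen with earlier results of these data known, and their counts stand against the 27.6% and 26.3% of all genes given above.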

How the data were processed

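Polyadenylated RNA of 11 libraries was sequenced; per the labels, a ZymoPure kit was used for extraction and Illumina TruSeq for library preparation. The submitters' processing notes name TopHat2 2.0.4, Cufflinks 2.1.1, HTSeq 0.6.1, limma, CASAVA and bcl2fastq 1.8.3 without their roles, and the builds mm10 and GRCm38. No source used here gives the annotation or says whether counting used strand. The count table deposited by the authors holds expected counts per gene symbol, whole for 38093 genes and fractional for 104 (Kcnb2 among the channel genes), which were rounded here. The authors also deposited FPKM values, used for levels between genes, and log2 (voom) values of the same counts, which were not used here.

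Counts were tested in edgeR 4.0.16 (R 4.3.3) with quasi-likelihood tests, TMM scaling, filterByExpr with a minimum count of 10 and Benjamini-Hochberg adjustment at 0.05. Days 0 to 3 were fitted on 8 libraries (16810 genes) and day 3.5 against day 3 on all 11 (17006 genes). The fits were also run on simulated data with far fewer changed genes than were called here, and no result above rests on that run. A floor of 3 counts per library bounds levels of 0. FPKM alternatives used limma 3.58.1 with pseudocounts of 1 and 0.1 and a filter of at least 1 FPKM in 2 libraries, and DESeq2 1.42.0 was an alternative on counts. Gene positions come from GENCODE M21 on GRCm38, and promoters from RefSeq.

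The members, classes and lists were chosen with earlier results of these data known. Genes were named by 3 rules: up to 8 called members per direction and comparison with the largest change, among those whose groups did not overlap and whose higher group averaged at least 1 CPM; the highest member of each class by FPKM; and a panel of well-known members. Other genes were named after their values were seen. Results of some members are not reported here.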

Additional observations from a re-analysis of the deposited data

How the results depend on the processing

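Counts of channel genes called higher and lower are given here in that order. Under RLE size factors every count stayed within 1.5 times its main value, and with the day 0 to day 3 comparison this also held for all alternatives other than those on filtered FPKM. Without the filter on low counts, 4 members were lower at day 1, 16 higher at day 2, 22 and 4 at day 3 against day 2, and 11 lower at day 3.5. DESeq2 called 2 lower at day 1, 18 higher at day 3 against day 2, and 1 higher at day 3.5. Other libraries in the fit (all 11 for days 0 to 3, and 5 for day 3.5) gave 2 lower at day 1, 13 higher at day 2, 19 higher at day 3 against day 2, and 1 and 3 at day 3.5. On log2(FPKM + 1), where the filter left 38 members, day 1 had 7 higher, day 2 had 4 and 4, day 3 against day 2 had 3 and 0, day 3 against day 0 had 13 and 7, and day 3.5 had 0 lower. On log2(FPKM + 0.1) day 1 had 6 higher, day 2 had 1 and 4, day 3 against day 2 had 0 and 0, day 3 against day 0 had 17 and 7, and day 3.5 had 3 lower. Without the FPKM filter (pseudocount 1) there were 12 and 2 at day 1, 2 higher at day 2, 6 and 0 at day 3 against day 2, and 1 lower at day 3.5.

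A GC offset, chosen after seeing the data, gave 2 lower at day 1, 21 lower at day 2, 23 and 4 at day 3 against day 2, and 1 higher at day 3.5. It reversed 1 result, the change of Cacnb3 from day 0 to day 3, to -0.41 (adjusted p = 0.0202); the cause was not tested. The share of all calls that were higher moved from 57.4% to 71.3% at day 1 on log2(FPKM + 0.1), from 49.2% to 36% at day 2 on unfiltered log2(FPKM + 1), from 69.2% to 50% at day 3 against day 2 on log2(FPKM + 0.1) and to 56.2% with the GC offset, and from 12.9% to 28.8% at day 3.5 with the GC offset. The log2(FPKM + 1) scale moved the median change of all genes from day 0 to day 3 to 0.11.

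The correlation of replicate differences between days ran from -0.694 to 0.32. With mixed signs and 2 libraries a day it cannot decide whether replicate numbers pair the libraries. With the replicate block, day 1 had 19 and 1 calls, day 2 had 6 and 5, day 3 against day 2 had 9 and 0, day 3 against day 0 had 53 and 11, and day 3.5 had 0 and 3. Among the calls named in the text, it ended those of Cacna1h at day 1, of Cacna1b, Kcnh8, Kcnip2 and Kcns3 at day 2, of Cacna2d1, Cacng6, Kcnj5 and Kcnt1 at day 3 against day 2, of Cacng7 at day 3 against day 0 and of Cacna1d at day 3.5.

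Leaving out 1 library gave day 1 a range of 15 to 22 higher and 1 to 2 lower, day 2 one of 3 to 14 and 4 to 13, day 3 against day 2 one of 0 to 15 and 0 to 3, day 3 against day 0 one of 42 to 59 and 9 to 14, and day 3.5 one of 0 to 2 and 1 to 6; a lone library was then assumed to vary like the others. The sorted libraries held at most 17113430 counts, so low members were less detectable there.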
